A study of Mus musculus with 1600 samples.

Results

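Scx encodes scleraxis, a basic helix-loop-helix (bHLH) transcription factor that marks the progenitors of tendon and ligament, and Mkx encodes Mohawk, a homeobox transcription factor of the TALE class that differentiating tendon needs to build its collagen fibrils. Scleraxis pairs with broadly expressed E proteins and binds the short DNA motif called the E-box. In the mouse limb it is made from the limb bud onward, under the influence of TGF-beta and FGF signals, while Mohawk comes on later in the tendon lineage. Tenomodulin (Tnmd), a membrane protein of maturing tendon cells, is known to need scleraxis and is a usual marker of the differentiated state. These 2 of the 22092 gene symbols in the table were taken by name and followed over single cells, developmental stages, cell classes and each other.

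The cells came from hind limbs of SCX-GFP transgenic mouse embryos on the C57BL/6 background of 3 gestational days, E10.5, then E12.5, then E15.5, and all 3 groups carried the transgene. For each stage the limbs of sibling embryos were combined, dissociated with enzymes, captured on the Fluidigm C1 chip and sequenced from Nextera XT libraries. No sort for GFP is named. The table held 480 cells. Those with at least 1000 detected genes were kept, which left 119 cells with the label E10.5, 158 with E12.5, and 200 with E15.5.

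Each stage was thus 1 sample without replicates, so no test between stages was possible and none is given. The cells fell into 12 library pools of 40 by the index in their labels, and the pools are a technical split of a stage. Pools 1 to 3 held E10.5, pools 4 to 7 E12.5 and pools 8 to 12 E15.5. All 12 pools reused the same 40 cell indices. Total counts per kept cell had medians of 272198 (E10.5), 250710 (E12.5), and 192228 (E15.5). Levels are CPM, the counts of a gene summed over cells and scaled to the summed total of those cells. The 95% intervals of levels cover counting error only. They are too narrow even for that where PCR copies of a molecule were counted, since copies are not independent. The intervals of shares treat the cells of 1 sample as independent draws and do not cover differences between embryos or litters.

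The cells labelled E10.5 went against their tissue label. Tbx5, the T-box gene of the forelimb, stood at 67.9 CPM with a count in 87 of those 119 cells. Pitx1, a homeobox gene of the hind limb, had 0 counts there, which at a limit of 3 counts allows up to 2.52% of cells with a count, whereas a Pitx1 count was present in 125 of 158 cells (E12.5), then 110 of 200 (E15.5). Every comparison with E10.5 below rests on those cells, and stage, limb and litter cannot be told apart in it.

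Scx is a small gene inside another gene. On GRCm38 it spans chr15:76457452-76459458 on the plus strand, within an intron of Bop1, a ribosome biogenesis gene on the minus strand at chr15:76452989-76477277. No Scx exon overlapped a Bop1 exon, and the nearest Bop1 exon lay 1178 bases away. Whether the counting used strand, and whether the transgene's transcript shares sequence with Scx, is not given in the sources used here. The table had 0 rows named for GFP. Bop1 stood at 116 CPM in E10.5 cells, then 62.0 CPM (E12.5), then 36.3 CPM (E15.5), an order that Scx did not share.

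Scx was lowest at E10.5 and highest at E12.5. Its summed level was 60.3 CPM (57.7 to 62.9) at E10.5, then 826 CPM (818 to 834) at E12.5, then 226 CPM (221 to 230) at E15.5. The pools gave 61.8, 35.7 and 88.4 CPM at E10.5. At E12.5 they gave 1477, 507, 654 and 648 CPM. At E15.5 they gave 88.4, 61.7, 99.3, 780 and 182 CPM. All pools of E12.5 lay above all pools of E10.5, whereas 1 pool of E15.5, pool 11, lay within the range of E12.5.

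A gene was called between stages when its log2 ratio, computed with 5 CPM added, reached 1 in size and the pools of the stages did not overlap. Scx was higher at E12.5 than at E10.5, 13.7-fold and 3.67 on the log2 scale. This call was met upward by 7.76% of the 13125 genes compared and downward by 2.83%. At E15.5 against E12.5 the Scx ratio was -1.85, without a call because of pool 11, and 1.63% of genes were called lower. Without the highest Scx cell of each pool that ratio was -2.20 and without pool 11 it was -2.83, both called lower. At E15.5 against E10.5 the Scx ratio was 1.82, not called because the pools overlapped. It was 2.03 and called without pool 9, and 0.84 without pool 11.

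Mkx was nearly unread at E10.5 and similar at the later stages. Its summed level was 0.948 CPM (0.649 to 1.34) at E10.5, from 32 counts in 4 cells, then 32.4 CPM (30.8 to 34.1) at E12.5, then 36.5 CPM (34.8 to 38.3) at E15.5. The pools gave 1.61, 1.02 and 0 CPM at E10.5. At E12.5 they gave 46.5, 11.9, 26.7 and 40.4 CPM. At E15.5 they gave 57.1, 23.8, 22.2, 63.0 and 15.9 CPM. The pools of the later stages all lay above those of E10.5 and overlapped each other.

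Mkx was called higher at E12.5 than at E10.5, 34.2-fold and 2.65 on the log2 scale with 5 CPM added. It was also called higher at E15.5 than at E10.5, 38.5-fold and 2.80, a call that 11.2% of genes met upward and 5.01% downward. At E15.5 against E12.5 the ratio was 0.15, and 2.99% of genes were called higher there. So the level of Scx was 0.273 of its E12.5 level at E15.5, while that of Mkx was 1.13 times its own. The difference between these ratios of the genes was not tested.

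**Figure D1:**
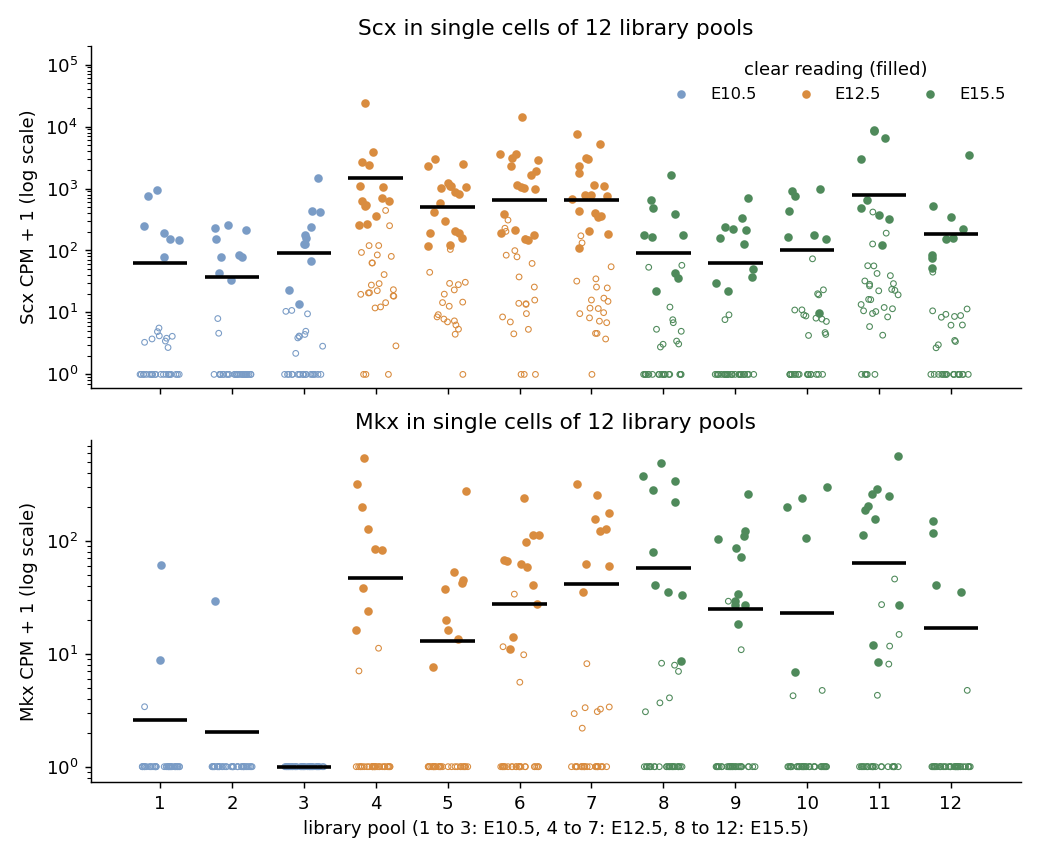
Scx (upper panel) and Mkx (lower panel) in every kept cell, as CPM plus 1 on a log axis, by library pool; filled points are clear readings, open points all other cells, and black lines the CPM of the pool's summed counts. Scx sits above 500 CPM in every pool of E12.5, its highest cell, in pool 4, reaches 23993 CPM, and Mkx is nearly absent in pools 1 to 3.

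Much of the Scx signal lay in few cells at every stage, though a count was widespread at E12.5. A count of Scx was present in 48 of 119 cells (40.3%) at E10.5, then 150 of 158 (94.9%) at E12.5, then 113 of 200 (56.5%) at E15.5. Many of these cells had only 1 to 9 counts: 24 cells at E10.5, then 67 (E12.5), then 68 (E15.5). Such low counts were also common in clusters of other cell types. At E15.5 a Scx count was present in 63.6% of 11 endothelium-like and 57.7% of 26 skin epithelium-like cells, against 54.4% of 68 tendon-like cells. A Scx count of any size was therefore not taken as a reading by itself, and the source of the low counts was not tested.

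A clear reading was instead defined as at least 3 counts that made up more than 0.5% of what its pool held of that gene. By this measure Scx was read in 27 cells (22.7%) at E10.5, then 70 (44.3%) at E12.5, then 47 (23.5%) at E15.5, and these cells held 98.8%, 98.4% and 97.9% of its counts in the same order of stages. The bar moved with the pool's counts. It lay at 3 to 4.225 Scx counts in the pools of E10.5, at 28.3 to 86.5 in those of E12.5, highest in pool 4 with its top cell, and at 3 to 30.6 in those of E15.5, so shares by clear reading are not on 1 scale across stages. At a fixed bar of 10 counts Scx was read in 24, 83 and 45 cells in the same order. Among the cells with a clear reading the median was 152 CPM (E10.5), then 841 CPM (E12.5), then 219 CPM (E15.5), and the highest cells had 1460, 23993 and 8879 CPM. At least 50% of all Scx counts lay in 5 cells (E10.5), then 7 (E12.5), then 3 (E15.5).

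Mkx was read in fewer cells. It had a count in 4 of 119 cells (3.36%) at E10.5, then 52 of 158 (32.9%) at E12.5, then 58 of 200 (29.0%) at E15.5. A clear reading was left in 3, 39 and 41 cells (2.52%, 24.7% and 20.5%). The top cell held 11.7% of the Mkx counts at E12.5 and 9.40% at E15.5, against 27.4% and 28.9% of the Scx counts in its own top cells.

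To compare shares at equal depth, cells were thinned to 50000 counts. A Scx count then remained in 25.2% (E10.5), 73.2% (E12.5), then 40.5% (E15.5) of cells, and a Mkx count in 0.870%, 26.2% and 23.2% in the same order. The order of the stages was that of the summed CPM for Scx. For Mkx the share at E15.5 lay below and the CPM above that at E12.5, so no order of these stages is read.

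By clear reading, a measure set after seeing the data, Scx was read more often in cells with Mkx than in cells without it at both later stages. At E12.5, 26 cells had a clear reading of both genes, 44 of Scx only, 13 of Mkx only and 75 of neither. Scx was thus read in 66.7% of the 39 cells with Mkx, against 37.0% of the 119 cells without it, a difference of 29.7 percentage points (Newcombe interval 11.6 to 44.8). At E15.5, 20 cells had both, 27 Scx only, 21 Mkx only and 132 neither. There Scx was read in 48.8% of the 41 cells with Mkx, against 17.0% of the 159 cells without it, a difference of 31.8 points (15.8 to 47.4). At E10.5 the 3 cells with Mkx had no clear Scx reading.

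The excess was not equal in all pools. At E12.5 it was 55.2, 36.4, -4.76 and 39.1 points in pools 4 to 7, so pool 6 ran the other way. At E15.5 it was 6.67, 37.3, 45.7, 44.2 and 30.6 points in pools 8 to 12. Leaving out any pool left 21.3 to 43.7 points at E12.5 and 28.2 to 39.3 points at E15.5.

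Any count was the measure planned first. Read by it, the excess was 4.68 points (-4.18 to 11.3) at E12.5 and 7.84 points (-7.29 to 21.9) at E15.5, both with an interval that spans no difference. At E12.5 a Scx count was present in 51 of the 52 cells with a Mkx count and in 93.4% of the 106 others. With at least 10 counts of each gene the excess was 34.9 and 27.8 points. Cells with both genes were also the deeper ones: their median total was 363090 counts at E12.5 against 202512 in cells with neither, and 266582 against 167407 at E15.5. With cells thinned to 50000 counts, which left out 9 shallower E12.5 and 15 shallower E15.5 cells, the clear readings still differed by 24.9 points at E12.5 and 28.0 points at E15.5.

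Scrublet, which looks for captures that hold more than 1 cell, marked 16 of 119, 17 of 158 and 16 of 200 cells at the 3 stages, among them 5 of the 26 and 3 of the 20 cells with both genes. Without the marked cells the excess was 27.5 points at E12.5 and 31.8 points at E15.5. No cell was removed for this.

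**Figure D2:**
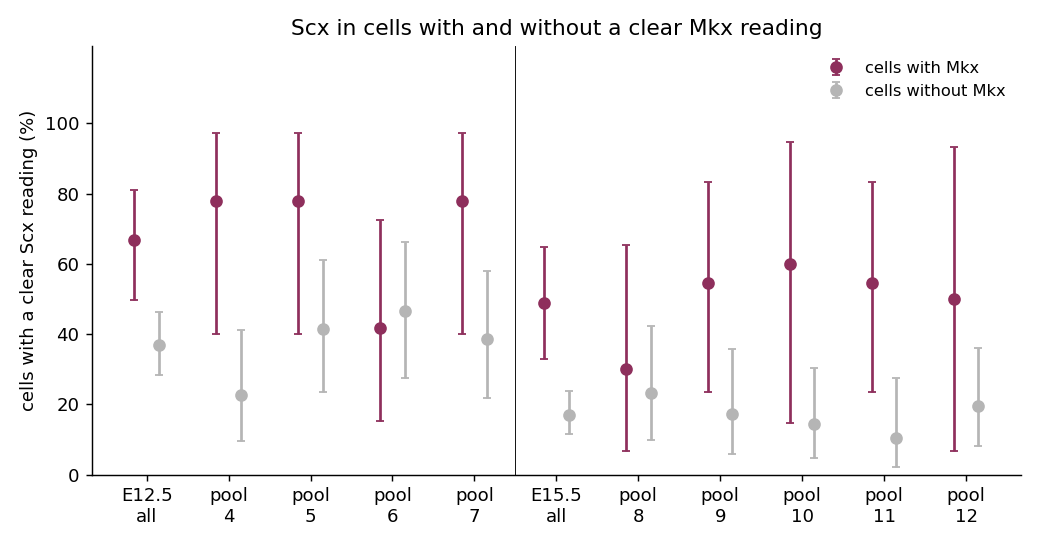
Share of cells with a clear Scx reading among cells with a clear Mkx reading (purple) and without one (grey), for each stage and each of its pools; bars are exact 95% Clopper-Pearson intervals. Cells with Mkx lie above the others in all pools but pool 6, with 66.7% against 37.0% at E12.5 and 48.8% against 17.0% at E15.5.

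The levels of the genes were weakly related. Over all cells of a stage Spearman's rho of Scx and Mkx was -0.07 (E10.5), then 0.24 (E12.5), then 0.17 (E15.5). Within the cells with both it was 0.07 over 26 cells at E12.5 and 0.36 over 20 cells at E15.5. Over all cells of E12.5, Mkx ranked 25th of 8123 genes by rho with Scx and was positive in every pool. That rho lay above the 99th percentile of genes with Scx (0.21) and below that of genes with Mkx (0.25). At E15.5 the rho of 0.17 lay below both percentiles, 0.20 with Scx and 0.23 with Mkx. The cells share libraries and differ in depth, and correlations of this size in sparse counts are given as a description only.

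**Figure D3:**
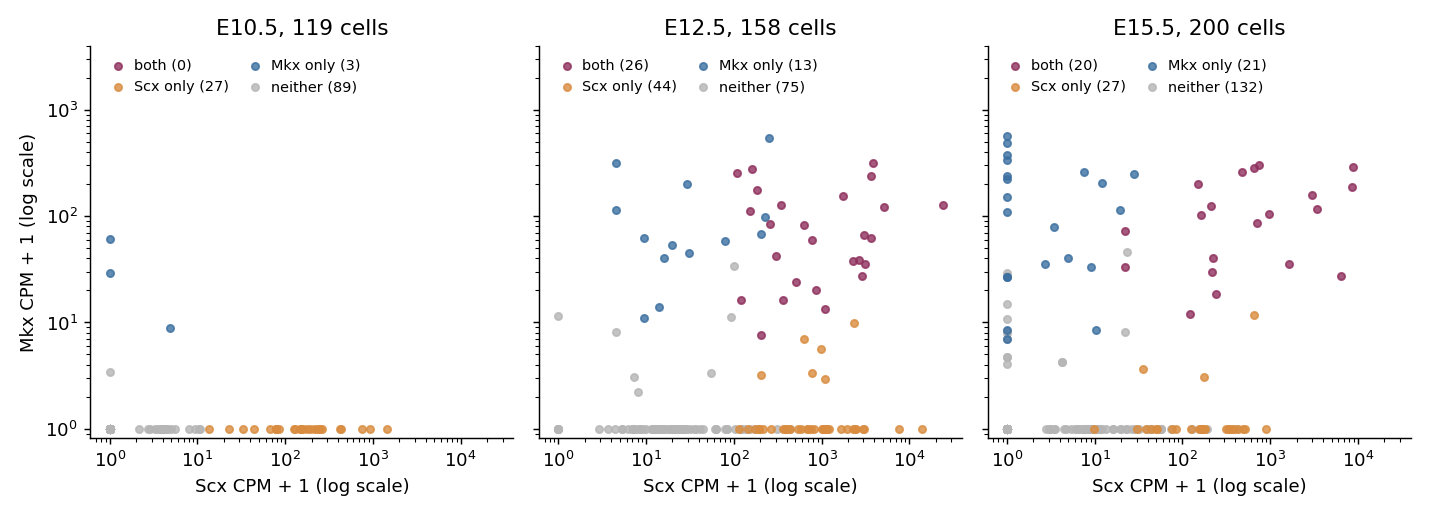
Scx (horizontal) against Mkx (vertical) in single cells, 1 panel a stage, as CPM plus 1 on log axes; colours give the clear readings, with the number of cells in each legend. Cells with both genes number 0, 26 and 20, and their levels spread widely without a common slope.

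Cells were grouped by a clustering that left out Scx and Mkx. At E15.5 it gave a tendon-like cluster of 68 cells, with Tnmd, Fmod and Thbs2 among its top 10 genes. It was named from 9 tendon markers among its top 100 genes, which also held 7 cartilage markers. Its summed level of the cartilage collagen gene Col2a1 was 1070 CPM, against 493 CPM for Tnmd. The cartilage-like cluster held 0 cells of E15.5, and clustering each stage apart gave no tendon-like class. Whether the tendon-like cluster also holds cartilage cells was not tested. Of the tendon-like cells 26 had a clear Scx reading (38.2%, 26.7 to 50.8) and 20 a clear Mkx reading (29.4%). In the connective tissue-like cluster 5 of 47 cells (10.6%) had Scx and 8 (17.0%) had Mkx. Skin epithelium-like cells, at a median total of 261648 counts, had Scx in 1 of 26 (3.85%) and Mkx in 2. Endothelium-like cells, at a median of 309472, had each gene in 2 of 11, and macrophage and mast cell-like cells had neither in 7.

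Scx was not confined to tendon-like cells. Of 12 muscle-like cells at E15.5, 7 had a clear Scx reading and 3 a clear Mkx reading. By level, Scx stood at 310 CPM in the tendon-like, 343 CPM in the connective tissue-like and 76.2 CPM in the muscle-like cells, but 1 cell held 82.1% of the connective tissue counts, and without it that cluster was at 63.6 CPM. Mkx stood at 51.6, 36.0 and 64.8 CPM in the same clusters, and at 26.1 CPM in the muscle-like cells without their highest cell. Of the 20 cells with both genes 13 were tendon-like.

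At E12.5 no tendon-like cluster stood apart. Scx was at 848 CPM in 98 limb bud mesenchyme-like cells, 1065 CPM in 22 cartilage-like cells and 817 CPM in 6 muscle-like cells, with clear readings in 46, 11 and 4 of them. Without the highest Scx cell of each these levels were 525, 847 and 296 CPM. Mkx was at 34.1, 33.0 and 88.7 CPM there, with clear readings in 28, 7 and 2. Without its highest cell the muscle-like level of Mkx was 20.5 CPM. Sox9, the cartilage regulator that early tendon attachment cells share with Scx, did not sort the Scx cells. Scx was read in 45.6% of the cells with a clear Sox9 reading and 43.0% of those without at E12.5, and in 25.0% against 22.7% at E15.5.

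**Figure D4:**
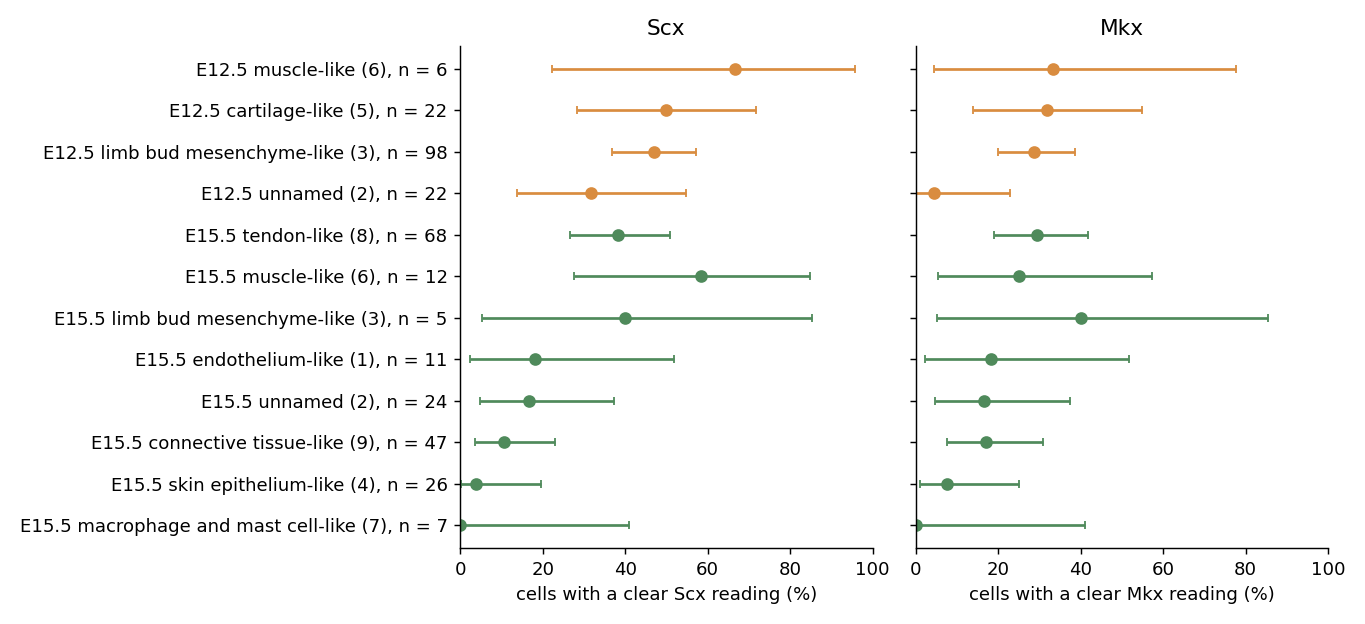
Share of cells with a clear Scx (left) and Mkx (right) reading in each cluster with at least 5 cells, with its number in brackets; points are shares and bars exact 95% Clopper-Pearson intervals, E12.5 in orange and E15.5 in green. Tendon-like cells have Scx in 38.2% and Mkx in 29.4%, skin epithelium-like cells Scx in 3.85%, and muscle-like cells have wide intervals.

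Cells with both genes at E15.5 had higher levels of a few tendon genes than cells with neither. Genes were compared between the 4 kinds of cell by summed CPM, and a gene was called when the log2 ratio with 5 CPM added reached 1 in size and also did so without each pool in turn. Of the 24 tendon matrix and membrane genes listed, 20 were measured, and 4 were higher and 0 lower in cells with both than in cells with neither. Over all 8070 genes 1.43% were called higher and 6.34% lower. The list's median log2 ratio was 1.13, against -0.03 over all genes, and 19 of 20 ratios were above 0. The cells are of 1 sample, so these calls say how large a difference was in it and carry no test.

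Tnmd had the highest ratio among the genes called. It was at 835 CPM (810 to 860) in cells with both genes, 153 CPM in cells with Scx only, 421 CPM in cells with Mkx only and 11.1 CPM (9.83 to 12.4) in cells with neither. That is 75.5-fold between both and neither, or 5.71 on the log2 scale, and 5.07 to 6.04 when any pool was left out. The log2 ratio was 4.39 with the mean of per-cell CPM, which gives each cell equal weight, and 5.21 without the cells that Scrublet marked. In pools 8 to 12 Tnmd was at 1059, 265, 354, 863 and 1712 CPM in cells with both, against 14.3, 9.65, 20.7, 12.1 and 2.21 CPM in cells with neither. The pools did not overlap. Single cells weighed on the other kinds: 1 cell held 67.6% of the Tnmd counts with Scx only and 47.7% with Mkx only, and without it these levels were 51.4 and 233 CPM, while cells with both were at 724 CPM without theirs. A clear Tnmd reading was present in 13 of 20 cells with both, 4 of 27 with Scx only, 5 of 21 with Mkx only and 7 of 132 with neither.

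The other 3 called genes were matrix genes. Fmod, which encodes fibromodulin, a small proteoglycan that binds collagen fibrils, was at 261 CPM in cells with both, 96.9 CPM with Scx only, 130 CPM with Mkx only and 43.2 CPM with neither. Kera, which encodes keratocan of the same proteoglycan family, was at 233, 6.41, 89.5 and 34.7 CPM in these kinds of cell. Htra3, which encodes a secreted serine protease, was at 252, 62.3, 49.7 and 34.8 CPM. Both-read cells exceeded cells with neither 6.05-fold for Fmod, 6.70-fold for Kera and 7.26-fold for Htra3. The difference was uneven over pools, at 16.8 against 15.2 CPM for Htra3 in pool 9, and at 165 against 95.7 CPM for Fmod in pool 10 and 95.6 against 53.7 CPM in pool 11. Kera was at 31.3 CPM in cells with both in pool 10 and at 98.0 CPM in cells with neither in pool 8, so its pools overlapped, as did those of Fmod and Htra3. Each of the 3 was still called without its highest cell in cells with both.

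The start regions of these 4 genes are shown because they are the tendon genes that went with both factors, and the E-box, CANNTG, is the motif that scleraxis dimers bind. Each line gives the 250 bases before and the 50 after the annotated start (RefSeq, GRCm38.p6), 5′ to 3′ on the gene's strand, with E-boxes in capitals. The motif reads the same on both strands. The regions are chrX:133850758-133851057 (+) for Tnmd, chr1:134037004-134037303 (+) for Fmod, chr10:97606955-97607254 (+) for Kera and chr5:35679731-35680030 (-) for Htra3.
Tnmd: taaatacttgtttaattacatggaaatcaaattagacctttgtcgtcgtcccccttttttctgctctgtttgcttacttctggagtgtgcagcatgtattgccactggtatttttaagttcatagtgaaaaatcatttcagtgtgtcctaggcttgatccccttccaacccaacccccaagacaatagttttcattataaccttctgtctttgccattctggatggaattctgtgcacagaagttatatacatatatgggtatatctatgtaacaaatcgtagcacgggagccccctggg
Fmod: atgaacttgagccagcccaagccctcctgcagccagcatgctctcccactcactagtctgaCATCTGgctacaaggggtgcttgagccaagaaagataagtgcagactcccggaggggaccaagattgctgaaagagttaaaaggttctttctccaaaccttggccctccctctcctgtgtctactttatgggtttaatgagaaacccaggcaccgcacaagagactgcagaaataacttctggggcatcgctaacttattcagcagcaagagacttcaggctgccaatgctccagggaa
Kera: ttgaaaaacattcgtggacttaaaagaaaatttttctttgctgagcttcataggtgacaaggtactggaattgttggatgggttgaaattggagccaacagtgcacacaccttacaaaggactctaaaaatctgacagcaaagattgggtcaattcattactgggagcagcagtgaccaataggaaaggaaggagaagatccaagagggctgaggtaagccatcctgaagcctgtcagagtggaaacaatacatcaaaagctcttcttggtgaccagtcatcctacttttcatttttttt
Htra3: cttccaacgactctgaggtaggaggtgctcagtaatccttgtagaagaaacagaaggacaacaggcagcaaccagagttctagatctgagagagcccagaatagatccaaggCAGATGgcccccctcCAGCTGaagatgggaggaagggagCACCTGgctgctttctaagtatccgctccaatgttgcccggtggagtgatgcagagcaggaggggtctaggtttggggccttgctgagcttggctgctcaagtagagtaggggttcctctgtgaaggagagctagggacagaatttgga
Htra3 held 3 E-boxes, Fmod 1, and Tnmd and Kera 0 within these windows. Of 32851 promoter windows of the same length, 72.3% held at least 1 E-box and 17.6% at least 3, with a median of 1, so the 4 windows were not set apart by this motif. A match is no evidence of binding, and no match says only that these letters are not in the window.

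Other tendon genes had ratios of at least 1 but not without every pool. Ogn, which encodes the proteoglycan osteoglycin, was at 729 CPM in cells with both against 326 CPM with neither. Tnc, which encodes tenascin C, was at 204 against 75.2 CPM, and Col14a1, a fibril-associated collagen, at 189 against 60.9 CPM. The main tendon collagen genes gave smaller ratios. Col1a1 was at 4013 CPM with both, 2277 with Scx only, 2320 with Mkx only and 1945 with neither, a ratio of 1.04 that was not called, and Col1a2 gave 1.12. Col6a1 was the 1 gene of the list with a ratio below 0, at 206 against 404 CPM.

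Thbs4, which encodes thrombospondin 4 of tendon matrix, lay outside the genes compared because too few cells had a count. It was at 313 CPM in cells with both genes, 0.298 CPM with Scx only, 8.30 CPM with Mkx only and 12.46 CPM with neither. A clear Thbs4 reading was present in 6 of 20 cells with both, and 1 of them held 30.3% of the counts. With Scx only it was 0 of 27 cells, with Mkx only 1 of 21 and with neither 7 of 132. Htra3, Thbs4, Ogn, Tnc, Col14a1 and Col6a1, and the genes below that are no partner, signal or top-ranked gene, were named after their values were seen.

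**Figure D5:**
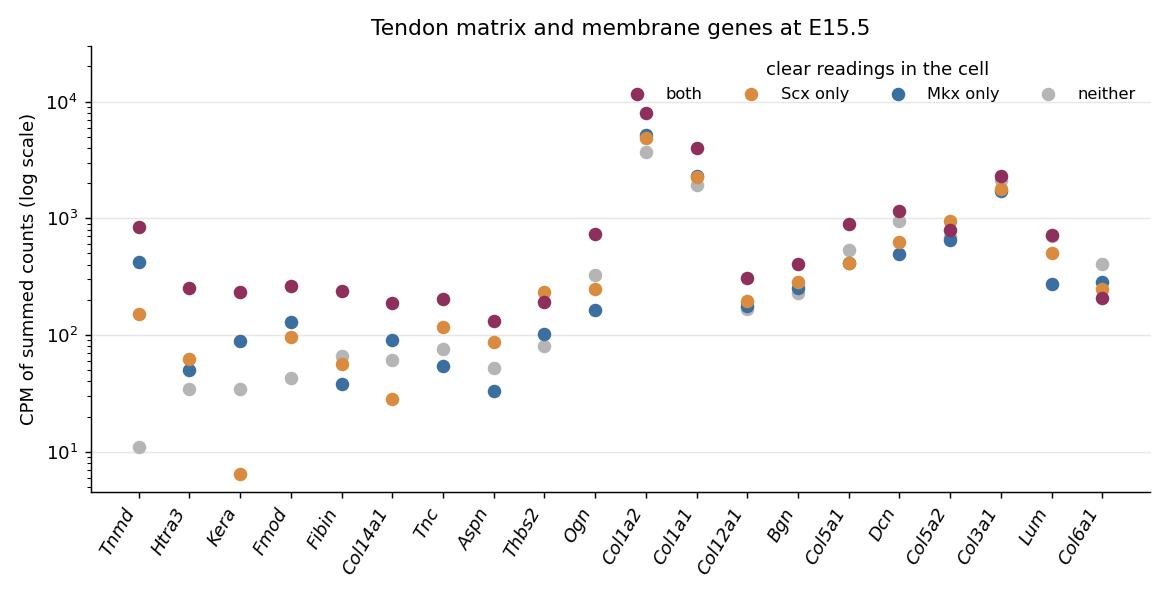
Level of the 20 measured tendon matrix and membrane genes at E15.5 as CPM of summed counts on a log axis, in cells with both Scx and Mkx, Scx only, Mkx only and neither, ordered by the ratio of both to neither. Tnmd spans 835 to 11.1 CPM, and Kera with Scx only (6.41 CPM) lies below Kera with neither (34.7 CPM).

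Fewer tendon genes were called in cells with 1 of the factors. Against cells with neither, 1 of 20 tendon genes, Tnmd, was called higher in cells with Scx only, where 1.21% of all genes were called higher and 5.25% lower. In cells with Mkx only it was again Tnmd, with 0.62% of genes called higher and 4.21% lower. Without the highest Tnmd cell the call with Scx only was lost (log2 ratio 1.81), and that with Mkx only was kept (3.89). Among cells with Scx only, the contractile muscle genes Actc1 (665 against 43.1 CPM) and Tnnt1 (176 against 18.2 CPM) were also higher. Of these 27 cells 6 were muscle-like, against 3 of the 132 cells with neither. The median cell held 37.6 CPM of summed muscle markers with Scx only and 41.3 CPM with neither. Cells with both also had more Scx, at a summed 1707 CPM against 201 CPM in cells with Scx only. Mkx was at 131 CPM with both and 129 CPM with Mkx only. The difference between 1 and both factors thus includes a difference in Scx level, and neither was tested.

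The comparison of both with neither also differed in cell types, since the cells with neither held 24 of 26 skin epithelium-like, 7 of 11 endothelium-like and 7 of 7 macrophage and mast cell-like cells, but 3 of 12 muscle-like cells. The summed markers of skin epithelium were at 699 CPM in cells with both, where the highest cell had 11928 CPM and the median cell 45.9 CPM, and at 2363 CPM in cells with neither, and those of macrophages and mast cells at 15.1 and 1513 CPM. Muscle markers were at 86.9 and 201 CPM, and cartilage markers at 2596 and 2128 CPM. The median cell held 1137 CPM of cartilage markers with both and 355 CPM with neither, whose highest cell had 29522 CPM. Within the tendon-like cluster alone, with 13 cells with both against 35 with neither, the same 4 of 20 genes were called higher and 1 lower, with 3.88% of genes called higher there, and Tnmd had a ratio of 5.99. The list's median ratio was smaller there, 0.53. The part of the remaining cell mixture in these differences was not tested.

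Seen from Tnmd, 29 cells at E15.5 had a clear Tnmd reading. Scx was read in 17 of them (58.6%), against 17.5% of the 171 other cells, and Mkx in 18 (62.1%), against 13.5%. Both factors were read in 13 of the 29 and in 7 of the 171.

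The E proteins Tcf3 and Tcf12, bHLH partners of scleraxis, were at 77.8 against 93.7 CPM and 180 against 214 CPM in cells with both and with neither, without a call. Of 10 measured bHLH partners and relatives 0 were higher and 1, Hand2, was lower. Over all genes in this comparison 1.43% were called higher and 6.34% lower, so 1 call is too few to be read against these shares. Among the TALE homeobox relatives of Mkx, Irx2 (1.94 against 69.6 CPM), Irx3 (0.581 against 29.9 CPM) and Meis1 (2.52 against 25.7 CPM), homeobox factors of limb patterning, were lower.

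The signalling and cartilage lists had few calls, too few to be read against the shares over all genes, 1.43% higher and 6.34% lower. Of 15 TGF-beta genes 1 was higher, Tgfb2, a ligand that tendon progenitors need, at 238 against 94.7 CPM. Tgfb3, another such ligand, was at 70.8 against 37.7 CPM without a call, and the receptor gene Tgfbr3 and the inhibitor gene Smad7 were lower. Egr1, a transcription factor that responds to mechanical load in tendon, was at 1920 against 1491 CPM without a call. Bmp4, a signal of the tendon attachment zone, was at 96.6 against 103 CPM. Of 10 cartilage genes 0 were higher and 1 lower, with Sox9 at 161 against 125 CPM and Col2a1, the main cartilage collagen, at 830 against 798 CPM. Those sums rested on few cells with neither. Col2a1 was read clearly in 12 of 20 cells with both (60%) against 25 of 132 with neither (18.9%), with median cells at 222 against 26.0 CPM.

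At E12.5 no tendon gene was called with both factors. Of 13 measured tendon genes 0 were higher and 0 lower in cells with both against neither, where 1.56% of 8122 genes were called higher and 3.4% lower. The list's median ratio was -0.06. With Scx only it was again 0 of 13 either way (1.54% of genes called higher, 1.72% lower). With Mkx only, over 13 cells, 0 were higher and 3 lower, the proteoglycan genes Kera, Lum and Ogn (1.87% of genes called higher, 8.85% lower). Tnmd, with a count in 5.06% of cells, was too sparse to be compared, but its level was 17.9 CPM with both, 0.220 CPM with Scx only, 0 with Mkx only and 0.336 CPM with neither. Of the 4 cells with a clear Tnmd reading at E12.5, 3 had both factors.

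Over all 8122 genes at E12.5, 3.4% were called lower and 1.56% higher in cells with both than with neither. The signalling and cartilage lists had at most 2 calls each, too few to be read against these shares. In the TGF-beta list 0 of 14 measured genes were lower, in the FGF list 1 of 8, in the BMP and GDF list 2 of 10 and in the cartilage list 1 of 8, and 0 were higher in any of these. Bmp4 was at 27.9 against 93.8 CPM, Gdf5, a signal of forming joints, at 9.83 against 95.4 CPM, and Sox6, a cartilage partner of Sox9, at 20.9 against 70.9 CPM. Fgfr3, a receptor of early cartilage, was at 1.06 against 40.0 CPM. Of 11 limb bud genes 1 was lower, Lhx2, a factor of that mesenchyme, at 34.4 against 93.5 CPM. Sox9 itself was at 94.2 against 240 CPM, a ratio of -1.31 that was not called. The muscle genes Acta1 and Actc1 were high in cells with both through 1 cell, which held 98.3% and 99.7% of their counts. At E10.5 the 27 cells with Scx only had 0 of 5 measured tendon genes higher or lower than cells with neither, where 1.29% of genes were called higher and 3.34% lower.

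Few genes followed either factor from cell to cell. A gene followed when Spearman's rho of its CPM with the factor reached 0.3 within a stage and was positive in every pool. With Scx, 11 of 7702 genes (0.143%) did so at E10.5, then 4 of 8123 (0.0492%) at E12.5, then 1 of 8071 (0.0124%) at E15.5. With Mkx, 9 (0.111%) did at E12.5 and 4 (0.0496%) at E15.5. No gene reached a rho of -0.3 within a stage. The lowest rho of all was -0.27 and the highest 0.36. The counts depended on the pools: leaving out 1 pool gave 67 to 102 genes with Scx at E10.5, then 3 to 26 (E12.5), then 1 to 4 (E15.5). With Mkx it gave 23 to 65 (E12.5), then 7 to 21 (E15.5), where fewer pools must have 1 sign. Correlations this weak are given as a description only.

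At E15.5 the gene most like Scx over 200 cells was Timp3 (rho 0.31), which encodes an inhibitor of matrix proteases, with Tnmd 12th at 0.25. Timp3 fell short of the threshold with ranks within pools (0.29) and with depth terms (0.28). Those most like Mkx were Cnn3 (0.35), which encodes an actin-binding calponin, Eif1b (0.33), Tnmd (0.32) and Trps1 (0.32), a zinc finger factor of skeletal development. At E12.5 over 158 cells they were Trim39 (0.33), Clmn (0.32), Pmepa1 (0.30), an inhibitor and target of TGF-beta signalling, and Cep97 (0.30) for Scx, and for Mkx led by Nckap5l (0.36), Naa25 (0.34) and Gja1 (0.31), which encodes connexin 43. At E10.5 Map2k7 (0.36) and Kif18b (0.34) led for Scx.

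The tendon list as a whole was near the background. With Mkx at E15.5, 16 of 20 tendon genes had a rho above 0, against 81.1% of all genes, and the median was 0.13 against 0.06 over all genes. With Scx 14 of 20 were above 0, against 68.1% of all genes, and the median was 0.06 against 0.03. The E proteins Tcf3 (0.23) and Tcf12 (0.22) and the ligand Tgfb3 (0.20) were positive with Mkx at E12.5 without reaching the threshold. Without the muscle, skin, endothelium and immune clusters, Tnmd stood at 0.36 with Scx and 0.37 with Mkx at E15.5, and Fmod at 0.31 with Mkx. The list's median there was 0.04 with Scx, as over all genes (0.04), and 0.12 with Mkx, against 0.07.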

How the data were processed

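The authors deposited unnormalized counts, 1 whole number for each gene in each cell. The submitters' processing notes name Bowtie2, featureCounts and mm10. For versions, annotation, strand and molecular identifiers nothing was given in the sources used here. Entries with one symbol and differing counts were added up (298 symbols were listed more than once), and 1120 further samples were not analysed here. Kept cells had at least 1000 detected genes and totals of 2681 to 1185267 counts.

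Intervals (95%) were exact Poisson for sums and Clopper-Pearson for shares, and differences of shares Newcombe intervals. Correlations, and the comparison of cells by reading, used genes that 20% or more of a stage's cells held. Clustering in scanpy 1.11.5 left out Scx and Mkx. Clusters were named from marker lists. Scrublet ran through scanpy, and its calls depended on its settings. The methods were tested on simulated data. Alternatives included other readings, thinning, depth terms and leaving out each pool.

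Named were Scx and Mkx, the genes with the highest and lowest rho in each stage, up to 4 members of each of 21 lists and a fixed set of partner, signal and matrix genes. The members, lists and rules were chosen with earlier results of these data known, and the clear reading and its comparison of cells after seeing the data. Some items of these lists are not reported here.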

Additional observations from a re-analysis of the deposited data

Results flagged for a closer look

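Within E12.5, pool 4 stood apart from the other pools for Scx, at 1477 CPM against 507 to 654 CPM in pools 5 to 7. The gap to its nearest neighbour was 0.848 of the range of the pools, above Dixon's 95% critical value for 4 values. Without its highest cell, which had 10392 counts where the next had 1802, pool 4 was at 612.45 CPM. Within E15.5, pool 11 stood apart for Scx at 780 CPM against 61.7 to 182 CPM in the other pools. Its gap was 0.833 of the range, above that for 5 values. Without its highest cell (3007 counts, the next 1043) it was at 415 CPM. These are library pools of 1 sample and not replicates. Chance flags about 1 in 20 such groups only where values are normally distributed. That rate need not hold here, since 1 cell held 60.1% of the Scx counts of pool 4 and 49.2% of those of pool 11. The ratio was computed for Scx and Mkx at E12.5 and E15.5, and no Mkx pool was flagged. What sets these cells and pools apart was not tested.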

How the results depend on the processing

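The calls that Scx and Mkx were higher at E12.5 than at E10.5, and Mkx at E15.5, held under the other pseudocount, scale, cell filter and cell weighting, without each pool's highest cell and without any pool. Without a pool the log2 ratios were 3.22 to 3.94, 2.46 to 2.89 and 2.55 to 3.01, and those of Mkx were 4.10 and 4.27 with 1 CPM added. Scx at E15.5 against E12.5 was -2.20 and called lower without the highest cell of each pool, and -2.83 to -1.40 without a pool. Against E10.5 it was 0.84 to 2.09, and Mkx at E15.5 against E12.5 was -0.11 to 0.36. Read by any count, the excess of Scx in cells with Mkx was 15.52 points after thinning at E12.5 and 2.76 to 6.10 (E12.5) and -0.39 to 15.7 (E15.5) without a pool. It was 29.7 and 31.8 points with clear readings and 34.9 and 27.8 with 10 counts. Of genes that followed Scx at E10.5, 11 became 17 with Pearson's r, 17 with ranks within pools, 6 with depth terms, 5 after thinning and 67 to 102 without a pool, where fewer pools must agree. For Scx at E12.5, 4 became 2 with depth terms, 2 after thinning and 3 to 26 without a pool. For Scx at E15.5, 1 became 5 with Pearson's r, 0 within pools, 0 with depth terms, 3 without non-mesenchymal clusters and 1 to 4 without a pool. For Mkx at E12.5, 9 became 5, 1 with depth terms, 2 after thinning, 17 without those clusters and 23 to 65 without a pool. For Mkx at E15.5, 4 became 8, 2 with depth terms, 26 without those clusters and 7 to 21 without a pool. At clustering resolution 0.5 the tendon-like class held 136 cells of E15.5, with Mkx at 43.8 CPM and Scx at 315 CPM. Without a pool the tendon-like cells had 40.1 to 60.4 CPM for Mkx and 211 to 390 CPM for Scx. Clustering each stage apart gave no tendon-like class and so no value. The 4 tendon genes were 7 with 10 counts as the reading and 3 to 8 without a pool, the 8 without pool 9. The causes were not tested. No paired analysis was possible because each stage was 1 sample and no test was run.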
